A study of Mus musculus with 9 samples.

Results

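The comparison set 2 libraries of mouse embryonic stem (ES) cells labelled as Yap1 knockouts, Yap1_KO1 and Yap1_KO2, against the control library ESC. These are 3 of the 9 libraries in the series and were chosen by their labels alone. All libraries hold polyadenylated RNA of the ES cell line J1 (strain 129S4/SvJae), given for all samples as passages 5 to 7. The genotype of the pair is given only as Yap1 knockout, and ESC is given as its control with no further allele. The sources used here do not say what was edited, how the cells were kept or whether the pair stems from different clones or cultures. The p-values below therefore reflect no more than the spread within the pair, and that spread may be technical. The other groups have 1 library each and serve here as reference. They are the control BirA with the overexpression library Yap1_OE, the library Control with the knockdown library Yap1_KD1 (here Yap1_KD), and, in differentiated cells, dESC_control with dESC_Yap1_KD1 (here dESC_Yap1_KD). Levels are FPKM, fragment counts scaled by transcript length and by the number of mapped fragments. Values of the pair are given in the order Yap1_KO1, Yap1_KO2, and "against" precedes the value in ESC unless another library is named. Of 18336 genes listed, 11449 reached 1 FPKM in at least 1 of the 3 libraries and entered the comparison.

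YAP, the protein encoded by Yap1, is a transcriptional coactivator with no DNA-binding domain of its own. The kinases of the Hippo pathway phosphorylate it and so keep it in the cytoplasm, and in the nucleus it binds the TEAD transcription factors and raises genes such as Cyr61 and Ctgf. Several of its targets, among them Amotl2 and Ajuba, encode proteins that bind YAP or its kinases and form feedback loops. In the early embryo nuclear YAP marks the outer cells that form trophoblast, while in ES cells the pathway is studied for its part in self-renewal and differentiation.

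Depth, recovered from the steps between low FPKM values, was about 14.96 M (mega) fragments in ESC, 9.30 M in the library labelled Yap1_KO1 and 12.7 M in the library labelled Yap1_KO2. For a 2 kb transcript, 1 FPKM thus stood for about 29.9, 18.6 and 25.5 fragments. All 8 ES cell markers examined, among them Pou5f1 and Nanog, were at 1 FPKM or more in all 3 libraries, and their summed level was 4427 FPKM in ESC and 4852 and 4448 FPKM in the pair. Of 10 feeder fibroblast markers, Col3a1, Dcn and Lum were listed at 0 in all 3 libraries, and the summed level (23.2 FPKM in ESC, 40.9 and 34.1 in the pair) was mostly Thy1. Of 8 primitive endoderm markers, Gata6, Gata4, Dab2 and Lama1 reached 1 FPKM in the library labelled Yap1_KO1, while Lama1 alone did so in the other library of the pair and in ESC. The summed levels of that list were 15.5, 8.64 and 11.8 FPKM in that order, and its part in the results was not tested.

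Yap1 RNA was examined first because it checks the labels. It stood at 65.4 FPKM in ESC, at 57.3 FPKM in the library labelled Yap1_KO1 and at 27.6 FPKM in the library labelled Yap1_KO2. The first of the pair was thus close to ESC and the second below it, and both lay far above the 4.55 FPKM of the knockdown library. By limma, a linear model fitted across all genes with a moderated variance, the pair's log2 ratio of (FPKM + 1) to ESC was -0.70 with a standard error (SE) of 0.38 and a Benjamini-Hochberg adjusted p of 0.299. The other undifferentiated controls, BirA and Control, had 46.7 and 37.4 FPKM, so the level of the library labelled Yap1_KO1 lay within the range of the 3 controls and that of the library labelled Yap1_KO2 below it. Taken singly, the log2 ratios to ESC were -0.19 and -1.21. FPKM of a whole gene would not reveal a short deletion, and every direction below is that of the libraries as labelled.

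The partners of YAP were measured in the same libraries. Wwtr1 encodes TAZ, the paralog of YAP, and stood at 7.88 FPKM in ESC and at 10.2 and 7.55 in the pair. Of the TEAD factors, Tead2 was the most abundant by FPKM, a scale that is per length, at 82.8 and 92.4 against 84.2. Tead1 was at 14.4 and 15.6 against 11.3 and Tead4 at 18.0 and 17.7 against 12.9, both above all 3 undifferentiated controls. Neither passed limma (Tead1 log2 ratio 0.38, SE 0.13, adjusted p = 0.158; Tead4 log2 ratio 0.44, SE 0.13, adjusted p = 0.117), and Tead3 was under 1 FPKM in all 3 libraries and not tested. Those limma results are for ESC as the control and did not all hold with the other controls. With BirA and Control in its place the log2 ratios were 0.54 and 0.62 for Tead1 and 0.71 and 1.06 for Tead4. For Tead2 they were 0.16 and 0.44, beside 0.054 with ESC. The mean ratio of Tead4 to Control was thus past 2-fold. Tead1, Tead2 and Tead4, through which YAP can reach DNA, thus remained expressed in the pair.

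**Figure D1:**
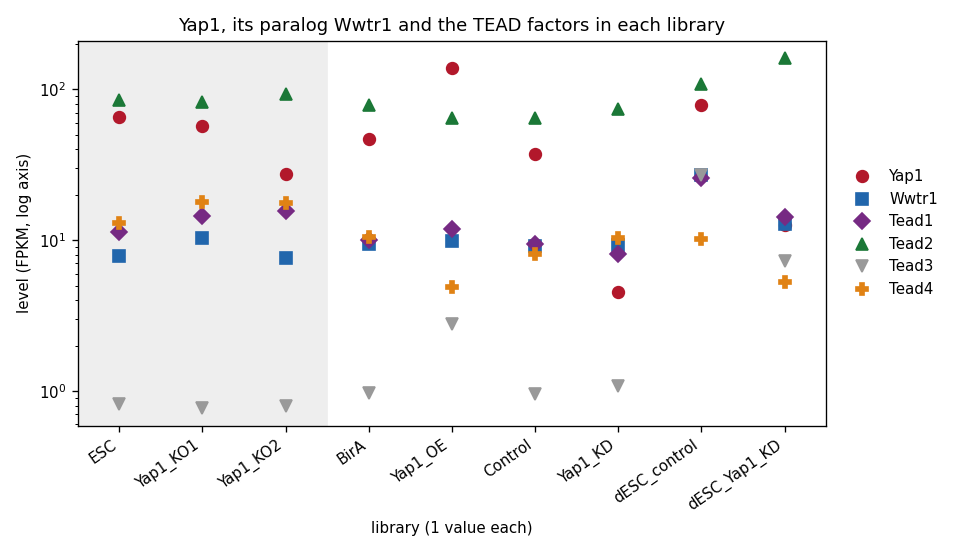
Level of Yap1, Wwtr1 and the TEAD factors (FPKM, log axis) in each of the 9 libraries, 1 point per library, with the 3 libraries compared on a grey ground. Yap1 is at 65.4 FPKM in ESC and at 57.3 and 27.6 FPKM in the libraries labelled as knockouts, against 4.55 FPKM in the knockdown library.

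Far more genes lay well below ESC than above it in both libraries of the pair. Those lower were led by an uncharacterised gene, D630045M09Rik, by epithelial genes (Krt17, Krt19, Tgm1), by YAP targets and Hippo pathway genes (Cyr61, Ctgf, Ajuba, Amotl2, Wwc2) and by growth factors (Fgf18, Wnt7b). Those higher were led by the ectonucleotidase Nt5e, the Y-linked helicase Ddx3y and transferrin with its receptor (Trf and Tfrc). By a rule of at least 2-fold in FPKM + 1 in both libraries, 91 genes (0.795% of those tested) were lower and 18 (0.157%) were higher, 109 (0.952%) in all. Both ratios share the ESC library, so this count is a description. On the lower side the rule's edge fell between Fgf17 and Nefh inside (smaller log2 ratio of the pair -1.01 for both) and Aldh3a1 (-0.998) and Map6 (-0.98) outside. On the higher side it fell between Vax2os (1.012) and Tnik (1.009) inside and Car2 (0.98) and Trh (0.96) outside. Limma with Benjamini-Hochberg adjustment over all genes called 36 genes lower (0.314%) and 10 higher (0.0873%) at an adjusted p under 0.05. Of these 46 (0.402%), 40 were among the 109 genes of the 2-fold rule, and the other 6 were Atox1, Mt2, Mycn and Uqcr10 on the lower and Spint1 and Trh on the higher side.

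The limma calls rest on 1 residual degree of freedom and on 1 control library, and their number moved far with the settings. Before adjustment 25.7% of all genes reached p under 0.05, and with no filter on low values limma with adjustment called 0 genes (2922 at an unadjusted p under 0.05). With libraries scaled by their median ratio it called 160 higher and 224 lower genes, and with quantile normalization 26 and 44, beside 10 and 36 here. With BirA and Control added to ESC as controls, limma called 4 genes, D630045M09Rik, Fam183b and Krt19 lower and Nt5e higher. These 4 were also among the 46. The levels in each library are therefore given first below, and the pair is set against all 3 undifferentiated controls. Where a gene is said to pass or not to pass limma, ESC is the control unless another is named. With BirA or Control in its place calls were both lost and gained, the latter for example at Wwc2 (log2 ratio -1.80 and -1.54).

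Of the 91 lower genes, 87 lay below ESC, BirA and Control in both libraries of the pair, where 19.2% of all genes tested did so. The exceptions were 1700124L16Rik, H2-L, Mt4 and Nefh. By the 2-fold rule 53 of the 91 were also lower than BirA and 42 were lower than Control, beside 209 and 279 of all 11449 genes tested. Lower than all 3 were 24. These 24 included D630045M09Rik, Cyr61, Wwc2, Krt19, Tgm1, Wnt7b, Jag2, Dnmt3l, Cdkn1c, Ddit4, Steap3 and Anxa2. Of the 18 higher genes, 16 lay above all 3 controls, where 24.9% of all genes did so, and 8 were at least 2-fold above all 3: Arhgef26, Ddx3y, Igdcc3, Mup6, Nfatc2, Nt5e, Tnik and Trf. The exceptions were Tfrc and Vax2os. Since the rule used ESC, being below or above that library is part of the choice, and only the place against BirA and Control adds to it. For the same reason the 24 and the 8 are also the counts over all genes tested.

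**Figure D2:**
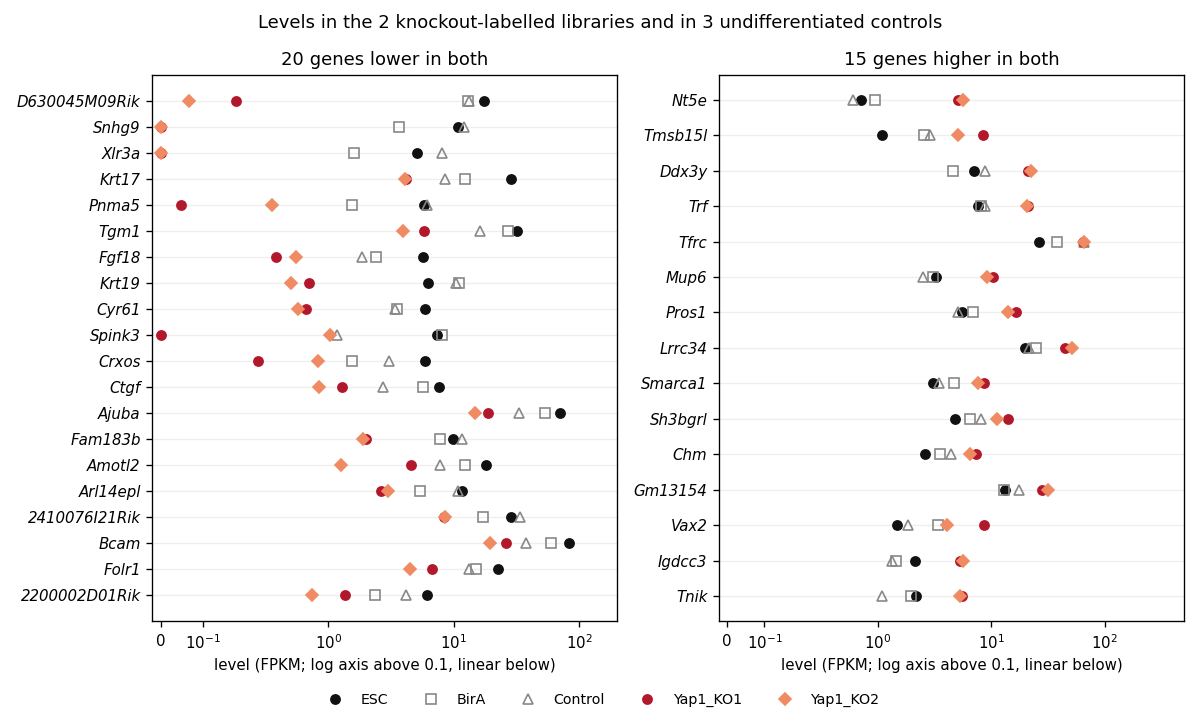
Levels (FPKM, log axis above 0.1 and linear below) of the 20 genes lowest and the 15 genes highest in both libraries of the pair, among genes at 5 FPKM or more, with 1 point per library. Filled red and orange points are the libraries labelled Yap1_KO1 and Yap1_KO2, black points ESC and open points the controls BirA and Control (Yap1_KO2 as diamonds, BirA as squares, Control as triangles). The pair lies apart from all 3 controls for most genes, and for Tfrc it coincides with Control.

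Genes of the YAP pathway were among the lowest. Cyr61, a secreted matricellular protein and a standard reporter of YAP activity, stood at 5.88 FPKM in ESC and at 0.670 and 0.571 in the pair. This was below BirA (3.56 FPKM) and Control (3.38 FPKM) as well, and it fell by limma (log2 ratio -2.09, SE 0.22, adjusted p = 0.0356). Ctgf, of the same family, was at 1.30 and 0.846 against 7.62 and fell (log2 ratio -2.07, SE 0.23, adjusted p = 0.0396), although Control had only 2.73 FPKM and the call was lost with it in place of ESC (log2 ratio -0.86, adjusted p = 0.0526). Ajuba, a LIM protein that binds the Lats kinases, was the most abundant of these genes in ESC, at 70.02 FPKM, with 18.7 and 14.8 FPKM in the pair and 53.6 and 32.9 in the other controls (log2 ratio -2.01, SE 0.16, adjusted p = 0.0279). Amotl2, a junction protein that holds YAP outside the nucleus, was at 18.1 FPKM in ESC and at 4.57 and 1.27 in the pair. The pair differed more for this gene than for the others, and it did not pass limma (log2 ratio -2.43, SE 0.49, adjusted p = 0.0743). The low values of the pair rest on few fragments: Cyr61 on about 12.6 and 14.7 and Ctgf on about 30.02 and 26.8, against 178 and 284 in ESC.

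The promoters of the Cyr61, Ajuba and Amotl2 genes are shown because the levels of these Hippo pathway genes were low together in the pair. They were chosen because each holds the TEAD core motif, and the promoter of Tgm1, which was also read, holds 0 matches. Ctgf had no entry among the promoters used. The sequences are the 250 bases before the RefSeq gene start (build GRCm38.p6), 5′ to 3′ on the gene's strand, and capitals mark matches to GGAATG or, read from the other strand, CATTCC. They lie at chr3:145649986-145650235 on the minus strand (Cyr61, in RefSeq Ccn1), chr14:54577662-54577911 on the minus strand (Ajuba) and chr9:102717554-102717803 on the plus strand (Amotl2).
Cyr61: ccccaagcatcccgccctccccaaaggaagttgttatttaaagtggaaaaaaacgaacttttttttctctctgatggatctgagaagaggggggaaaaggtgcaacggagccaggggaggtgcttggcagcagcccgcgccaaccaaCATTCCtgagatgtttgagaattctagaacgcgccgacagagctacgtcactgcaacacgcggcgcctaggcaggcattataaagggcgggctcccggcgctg
Ajuba: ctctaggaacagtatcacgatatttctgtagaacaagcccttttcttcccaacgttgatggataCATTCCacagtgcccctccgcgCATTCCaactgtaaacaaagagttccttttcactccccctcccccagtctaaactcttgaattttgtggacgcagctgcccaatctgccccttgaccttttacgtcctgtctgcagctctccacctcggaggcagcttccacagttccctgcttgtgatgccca
Amotl2: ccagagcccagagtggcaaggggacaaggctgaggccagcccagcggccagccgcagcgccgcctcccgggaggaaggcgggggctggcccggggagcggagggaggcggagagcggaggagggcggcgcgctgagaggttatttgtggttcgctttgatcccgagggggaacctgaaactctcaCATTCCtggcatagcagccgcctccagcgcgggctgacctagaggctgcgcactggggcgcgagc
The matches begin 103 bases before the start in Cyr61, 186 and 164 bases before it in Ajuba and 65 bases before it in Amotl2. RefSeq entries were matched for 68 of the 91 lower genes, 16 of the 18 higher genes and 9226 of all genes tested. On both strands GGAATG was found in 12 of the 68 (17.6%), in 3 of the 16 (18.8%) and in 949 of the 9226 (10.3%). The other lower genes with a match to it were 4933427D06Rik, Eno3, Ina, Inf2, Kcnk1, Myh6, Rcn3, Tmem125 and Wwc2. The AP-1 motif TGANTCA was found in 6 of the 68 (8.82%) against 3.82% of all, and the metal response motifs TGCACNC or TGCGCNC in 21 of the 68 (30.9%) against 31.1% of all. Matches of GGAATG overlapped one of the AP-1 motif in 3 promoters and one of the metal response motifs in 7. A match describes the letters of this window and is not a binding site.

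Beyond these genes the pathway had few members far from ESC. Of 20 measured YAP/TEAD targets, 11 were below ESC in both libraries and 6 above it, and 4 (Cyr61, Ctgf, Ajuba, Amotl2) were at least 2-fold lower and 1 higher. By limma 3 of them fell and 1 rose. That list's median log2 ratio was -0.11, beside 0.0063 over all genes tested. The higher target was Nt5e, described with the higher genes. Of 23 measured Hippo pathway components, 12 were below and 9 above ESC in both, beside 39.8% and 41.8% of all genes, and the median was -0.077, which became 0.24 with BirA and 0.13 with Control in place of ESC. Ajuba and Amotl2, already named, and Wwc2 were the 3 members at least 2-fold lower. Wwc2, a relative of the scaffold protein Kibra that activates the Lats kinases, stood at 17.1 FPKM in ESC and at 5.15 and 2.77 in the pair, below both other controls (15.8 and 13.01 FPKM). It did not pass limma (log2 ratio -1.91, SE 0.29, adjusted p = 0.0609).

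Epithelial genes lay low as a group, led by keratins and a cross-linking enzyme of skin. Keratins build the intermediate filaments of epithelia, and in ES cell cultures they mark cells turning to ectoderm or trophoblast. Krt17, a keratin of hair follicles and stressed skin, stood at 28.4 FPKM in ESC and at 4.13 and 4.10 in the pair, with 12.4 FPKM in BirA and 8.45 in Control. It fell by limma (log2 ratio -2.52, SE 0.14, adjusted p = 0.0147) and was the lowest in its list. Krt42 was at 8.27 and 9.59 against 30.6 (log2 ratio -1.67, SE 0.15, adjusted p = 0.0279), but BirA and Control had 19.7 and 11.2 FPKM and the call was lost with Control in place of ESC (log2 ratio -0.30, adjusted p = 0.202 by limma). Krt19, a keratin of simple epithelia, was at 0.698 and 0.510 against 6.20 (log2 ratio -2.17, SE 0.23, adjusted p = 0.0356). Krt19 was higher in BirA (11.1 FPKM) and Control (10.3 FPKM) than in ESC, so its gap to the pair was wider there. Tgm1, the transglutaminase that cross-links the cornified envelope of skin, was at 5.79 and 3.95 against 31.7 (log2 ratio -2.49, SE 0.21, adjusted p = 0.0279), below BirA at 27.1 FPKM and Control at 16.1 FPKM.

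Of 12 keratin and cornified envelope genes tested, 11 were below ESC in both libraries and 0 above, where 39.8% of all genes tested were below, and the median log2 ratio was -0.57. The 4 genes named passed both limma and the 2-fold rule, and the other 8 passed neither. The median stayed between -1.03 and -0.39 under the other scalings, with the GC trend removed and with BirA or Control in place of ESC. Of 4 surface ectoderm markers, Krt17 alone reached 1 FPKM in any of the 3 libraries, and Krt5 was listed at 0 in both libraries of the pair. The summed level of 8 trophoblast markers was 27.7 FPKM in ESC and 20.5 and 32.6 FPKM in the pair. The part of such cells in the result was not tested. In RNA of whole cultures, fewer cells of a type and less RNA per cell cannot be told apart. Bcam, a laminin receptor of the cell surface, was at 26.2 and 19.6 against 82.4 (log2 ratio -1.82, SE 0.18, adjusted p = 0.0335). BirA and Control had 59.1 and 37.5 FPKM of Bcam, and its call was lost with Control in place of ESC (log2 ratio -0.70, adjusted p = 0.0539 by limma). Anxa2, a membrane-binding protein, was at 4.62 and 7.90 against 18.1 (log2 ratio -1.44, SE 0.28, adjusted p = 0.0737), far from BirA and Control at 39.0 and 38.5 FPKM. Spink3, a secreted protease inhibitor, was at 7.40 FPKM in ESC, 1.04 in the library labelled Yap1_KO2 and listed at 0 in the library labelled Yap1_KO1. Control had 1.17 FPKM, near the pair. By contrast Spint1, a membrane-bound protease inhibitor of epithelia, rose (55.9 and 56.4 against 28.9; log2 ratio 0.93, SE 0.11, adjusted p = 0.0444).

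**Figure D3:**
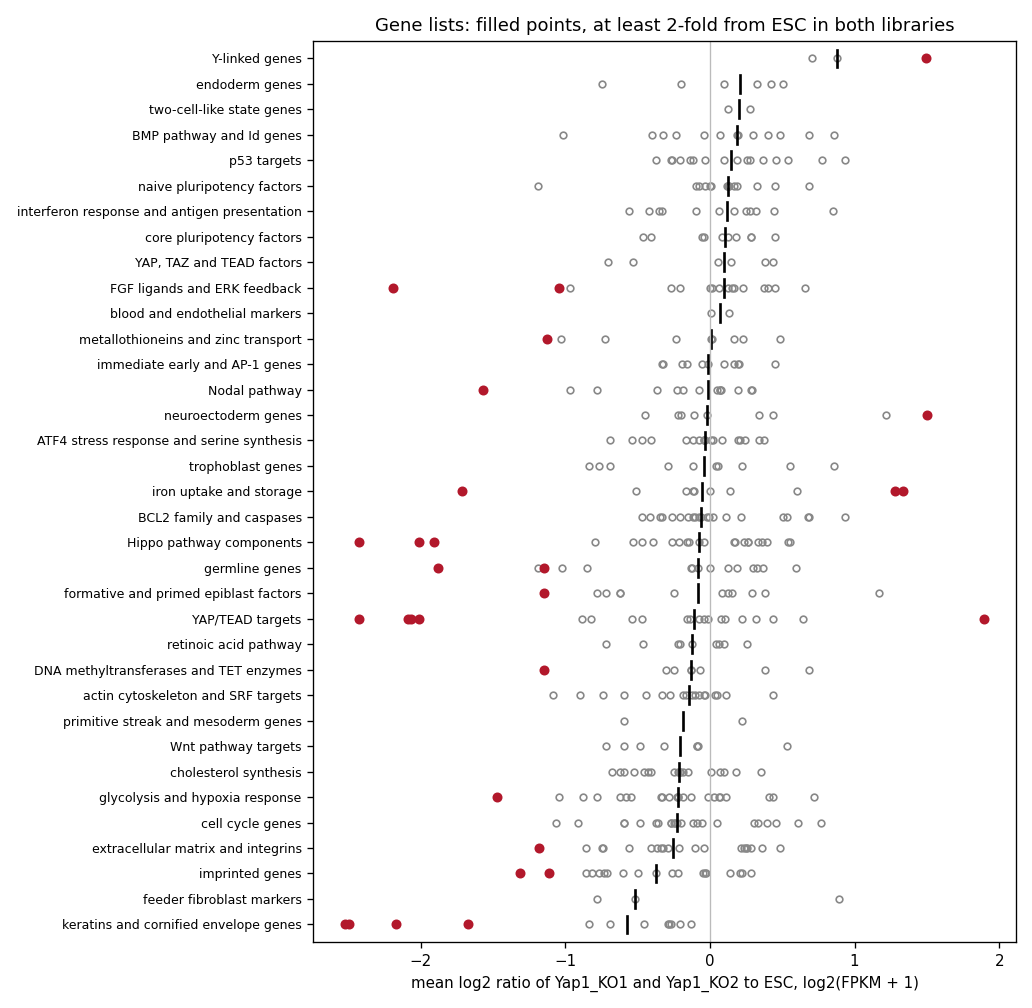
Mean log2 ratio of (FPKM + 1) of the pair to ESC for each tested member of 35 gene lists, with filled points for members at least 2-fold from ESC in both libraries and black bars for each list's median. Keratins and cornified envelope genes lie lowest, with a median of -0.57 and 4 filled points, and 20 of the 35 lists have no filled point.

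Among genes of secreted signals and their receptors, Fgf17, Fgf18, Wnt7b, Fzd2, Jag2, Ptch1 and Lefty1 were at least 2-fold lower, while the pathway lists that hold some of them were balanced. Fgf18, a growth factor, stood at 5.71 FPKM in ESC and at 0.382 and 0.558 in the pair and Fgf17 at 13.5 and 14.2 against 29.7. Both fell by limma (Fgf18 log2 ratio -2.19, SE 0.23, adjusted p = 0.0356; Fgf17 log2 ratio -1.04, SE 0.13, adjusted p = 0.0473). BirA and Control had 2.41 and 1.86 FPKM of Fgf18, so ESC was the highest of the controls. For Fgf17 they had 26.2 and 18.4 FPKM, and with Control in place of ESC its call was lost (log2 ratio -0.39, adjusted p = 0.0823 by limma). Fgf17 and Fgf18 were the 2 members at least 2-fold lower of 16 tested FGF ligands and ERK feedback genes. Of the 16, 6 were above and 5 below ESC in both libraries (median 0.094), beside 41.8% and 39.8% of all genes.

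Wnt7b, a Wnt ligand, was at 0.0642 and 0.117 against 3.90 (log2 ratio -2.17, SE 0.26, adjusted p = 0.0473), with 2.79 FPKM in BirA and 1.30 in Control. Fzd2, a Wnt receptor, was at 0.535 and 0.586 against 2.85 and Jag2, a Notch ligand, at 2.14 and 2.78 against 7.41. Neither passed limma (Fzd2 log2 ratio -1.30, SE 0.24, adjusted p = 0.0729; Jag2 log2 ratio -1.29, SE 0.20, adjusted p = 0.0619). Ptch1, the Hedgehog receptor and itself a Hedgehog target, fell from 34.5 to 13.4 and 13.9 FPKM (log2 ratio -1.28, SE 0.12, adjusted p = 0.0335), while Control had 15.5, and the call was lost with Control in place of ESC (log2 ratio -0.17, adjusted p = 0.347). Lefty1, a secreted antagonist of Nodal, was at 13.4 and 11.6 against 39.1 (log2 ratio -1.57, SE 0.14, adjusted p = 0.0288). Control had 15.6 FPKM, close to the pair, and BirA 49.5, and the call was lost with Control in place of ESC (log2 ratio -0.30, adjusted p = 0.183 by limma). Of the 14 Nodal pathway genes tested Lefty1 was the only one at least 2-fold lower and 0 were 2-fold higher. Of them 6 were above and 6 below ESC in both, beside 41.8% and 39.8% of all genes, and the median was -0.012. Sparc, a matrix glycoprotein, was at 60.5 and 59.7 against 138 (log2 ratio -1.18, SE 0.10, adjusted p = 0.0279), below BirA at 78.8 and Control at 92.4 FPKM, and the call was lost with BirA in place of ESC (log2 ratio -0.39, adjusted p = 0.0657). It was the only one of 20 matrix and integrin genes past the rule. Pim1, a kinase induced by the LIF and STAT3 pathway that sustains ES cells, was at 30.5 and 30.4 against 79.7 (log2 ratio -1.36, SE 0.11, adjusted p = 0.0279).

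A few genes of DNA methylation, imprinting and the germline were at least 2-fold lower. Dnmt3l, the catalytically inactive cofactor of the de novo DNA methyltransferases, stood at 182 FPKM in ESC and at 81.5 and 81.9 in the pair (log2 ratio -1.14, SE 0.099, adjusted p = 0.0279). BirA had 247 FPKM and Control 172, so the pair lay apart from all 3 controls. It was the only one of 8 tested DNA methyltransferase and TET genes at least 2-fold from ESC. Peg10, a paternally expressed gene of retrotransposon origin needed in the placenta, was at 23.1 and 25.9 against 62.2 (log2 ratio -1.31, SE 0.13, adjusted p = 0.0335). BirA and Control had only 32.6 and 28.2 FPKM of it, and the call was lost with either in place of ESC (log2 ratio -0.40 and -0.20). Cdkn1c, a maternally expressed inhibitor of the cell cycle, was at 5.51 and 4.99 against 12.5 and did not pass limma (log2 ratio -1.11, SE 0.15, adjusted p = 0.0588). Of 19 imprinted genes tested, 13 were below ESC in both libraries and 3 above, beside 39.8% and 41.8% of all genes. The median was -0.37, and it was -0.26 with BirA and -0.23 with Control in place of ESC.

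Tex19.1, a germline gene that restrains retrotransposons, was at 22.6 and 25.6 against 54.3 (log2 ratio -1.14, SE 0.13, adjusted p = 0.0426). Rhox6, an X-linked homeobox gene, was at 0.155 and 0.339 against 3.57 (log2 ratio -1.88, SE 0.26, adjusted p = 0.0588). In Control Rhox6 was under 1 FPKM, and with BirA in place of ESC its log2 ratio was -1.04. Tex19.1 and Rhox6 were the 2 members at least 2-fold lower of 15 germline genes tested. Of the 15, 6 were below and 5 above ESC in both libraries, beside 39.8% and 41.8% of all genes, and the median was -0.080. X-linked genes of the Xlr family were not detected in the pair: Xlr3a was at 5.06 FPKM in ESC and Xlr4a at 1.87, and both were listed at 0 in both libraries of the pair, as were Snhg9 and 1700124L16Rik. For Xlr3a the log2 ratio was -1.38 with BirA and -3.18 with Control in place of ESC. For Xlr4a it was -1.67 with Control in place of ESC, and BirA was under 1 FPKM. Near-identical copies exist in the Xlr family, and such values are uncertain. Pnma5 was at 0.0489 and 0.357 against 5.79 (log2 ratio -2.51, SE 0.27, adjusted p = 0.0389), with 1.54 FPKM in BirA and 6.14 in Control, and the call was lost with BirA in place of ESC (log2 ratio -1.09, adjusted p = 0.0634). Klhl13, an adaptor of a ubiquitin ligase, was at 14.2 and 14.4 against 40.3 (log2 ratio -1.43, SE 0.12, adjusted p = 0.0279). Ina and Nefl, neurofilament subunits, were at 5.54 and 8.89 against 26.4 and at 3.17 and 2.24 against 8.23, and neither passed limma (Ina log2 ratio -1.77, SE 0.25, adjusted p = 0.0588; Nefl log2 ratio -1.33, SE 0.21, adjusted p = 0.0643).

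The lowest ratio of all belonged to D630045M09Rik, an uncharacterised gene at 17.3 FPKM in ESC and at 0.185 and 0.0676 in the pair. BirA had 12.98 FPKM and Control 13.3, so the 3 controls lay together and the pair apart (log2 ratio -4.02, SE 0.22, adjusted p = 0.0147). Fam183b, another gene of which little is known, was at 2.01 and 1.89 against 9.84, and BirA and Control had 7.80 and 11.6 FPKM (log2 ratio -1.88, SE 0.18, adjusted p = 0.0335). Snhg9, a small nucleolar RNA host gene, was at 10.9 FPKM in ESC, 11.98 in Control and 3.67 in BirA. A 0 in these files can be a failed estimate, so its absence from the pair is given only as listed.

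Of the other genes named by their size, Crxos, an oppositely placed neighbour of the homeobox gene Crx, was at 0.277 and 0.825 against 5.86 and Folr1, a folate receptor, at 6.71 and 4.46 against 22.4. Neither passed limma (Crxos log2 ratio -2.17, SE 0.29, adjusted p = 0.0588; Folr1 log2 ratio -1.85, SE 0.23, adjusted p = 0.0502). Called lower by limma were also 2410076I21Rik (8.43 and 8.47 against 28.5), 4930500J02Rik (9.90 and 8.46 against 23.8), Arl14epl (2.64 and 2.99 against 11.7), Arhgap8, a GTPase activator (8.99 and 9.80 against 24.2), Rcn3, a calcium-binding protein of the endoplasmic reticulum (25.4 and 26.5 against 56.1), and Selm, a selenoprotein (13.01 and 12.9 against 30.3). For 2410076I21Rik Control, at 34.0 FPKM, lay above ESC and BirA, at 17.2, below it. For 4930500J02Rik they had 45.1 and 14.4 FPKM, and for Arl14epl 10.8 and 5.42. With BirA in place of ESC the calls of 4930500J02Rik (log2 ratio -0.60, adjusted p = 0.0649 by limma) and Arl14epl (-0.75, adjusted p = 0.0559) were lost. Of further signalling and secreted proteins, Htra1, a secreted protease, was at 9.10 and 5.76 against 27.6 and Efs, an adaptor of Src kinases, at 1.84 and 1.48 against 6.40. Neither passed limma (adjusted p = 0.0588 and 0.0588). The meiotic gene Hormad2 was at 0.806 and 1.24 against 5.08 and the X-linked Rhox13 and Usp26 were at 1.46 and 2.27 against 7.81 and 0.699 and 1.002 against 3.36, with Control above ESC for all 3, and none passed limma (adjusted p = 0.0605, 0.0588 and 0.0738). BirA lay below ESC for all 3, and with BirA in place of ESC their log2 ratios were -0.54, -0.82 and -0.69.

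Genes of metal handling were found on both sides. The metallothioneins Mt1 and Mt2 bind zinc and copper and are induced by metal. Mt1 stood at 174 FPKM in ESC and at 84.9 and 74.3 in the pair, and Mt2 at 47.0 and 52.9 against 103. Both fell by limma (Mt1 log2 ratio -1.12, SE 0.12, adjusted p = 0.0356; Mt2 log2 ratio -1.03, SE 0.12, adjusted p = 0.0444) and lay below all 3 controls, Mt2 by less against Control, which had 65.0 FPKM and with which its call was lost (log2 ratio -0.37, adjusted p = 0.0761). Atox1, a copper chaperone, fell from 570.0 to 321 and 331 FPKM (log2 ratio -0.80, SE 0.089, adjusted p = 0.0396). Of 9 metallothionein and zinc transport genes tested, 4 were below ESC in both libraries and 1 above, beside 39.8% and 41.8% of all genes.

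Iron genes included Tfrc, the most abundant of the 18 higher genes by FPKM. Tfrc, the transferrin receptor that takes iron into the cell, stood at 26.4 FPKM in ESC and at 65.1 and 66.2 in the pair and rose by limma (log2 ratio 1.28, SE 0.11, adjusted p = 0.0279). Control, however, had 65.9 FPKM, between the libraries of the pair, and with Control in place of ESC the log2 ratio was -0.0070. Trf, transferrin, which carries iron in plasma, was at 21.1 and 20.6 against 7.66 (log2 ratio 1.34, SE 0.13, adjusted p = 0.0335), and here BirA (8.13 FPKM) and Control (8.89 FPKM) lay with ESC. Steap3, the reductase that frees iron in the endosome, was lower at 6.26 and 3.41 against 17.6 and did not pass limma (log2 ratio -1.72, SE 0.30, adjusted p = 0.0678). Of 10 iron genes tested these 3 alone were at least 2-fold from ESC.

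Genes of glycolysis and of cholesterol synthesis were more often below ESC than above it, with few past the 2-fold rule. Ddit4, a hypoxia and stress inhibitor of mTORC1, was at 11.6 and 7.09 against 27.1 (log2 ratio -1.48, SE 0.26, adjusted p = 0.0724), but it varied widely among controls, with 207 FPKM in BirA and 108 in Control. It was the only one of 23 tested genes of glycolysis and the hypoxia response past the 2-fold rule, and 15 of the 23 were below and 4 above ESC in both libraries, beside 39.8% and 41.8% of all genes. The median was -0.22, and it was -0.85 with BirA and -0.68 with Control in place of ESC and -0.094 with the GC trend removed. Of 18 cholesterol synthesis genes 13 were below and 4 above ESC in both, with 0 past the 2-fold rule and a median of -0.22. The muscle-type glycolytic enzymes Eno3 and Pgam2 were at 4.29 and 4.38 against 12.2 (log2 ratio -1.30, SE 0.15, adjusted p = 0.0444) and at 5.24 and 3.30 against 11.8 (log2 ratio -1.30, SE 0.25, adjusted p = 0.0730). Mycn, a transcription factor of growth, fell from 104 to 52.7 and 56.7 FPKM (log2 ratio -0.91, SE 0.11, adjusted p = 0.0473), although Control had 54.0 FPKM, at the level of the pair. Uqcr10, a subunit of respiratory complex III, was at 513 and 498 against 885 (log2 ratio -0.81, SE 0.086, adjusted p = 0.0356).

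The higher genes were fewer and mostly of low level. Nt5e, the ectonucleotidase CD73 that makes adenosine outside the cell, stood at 0.714 FPKM in ESC and at 5.09 and 5.66 in the pair. BirA and Control had 0.952 and 0.608 FPKM, so all 3 controls were under 1 FPKM and both libraries of the pair above 5 FPKM. It rose by limma (log2 ratio 1.89, SE 0.19, adjusted p = 0.0335). Ddx3y, a Y-linked RNA helicase, was at 21.2 and 22.4 against 7.12 (log2 ratio 1.49, SE 0.13, adjusted p = 0.0279), above BirA at 4.58 and Control at 8.87 FPKM. The other Y-linked genes tested, Eif2s3y and Uty, were at 67.2 and 64.6 against 40.0 and at 5.61 and 5.92 against 2.67, above all 3 controls, and did not pass limma (Eif2s3y log2 ratio 0.71, SE 0.11, adjusted p = 0.0609; Uty log2 ratio 0.88, SE 0.17, adjusted p = 0.0730).

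Pros1, the anticoagulant protein S, rose (16.5 and 14.1 against 5.54; log2 ratio 1.32, SE 0.15, adjusted p = 0.0444), as did Mup6, of the major urinary protein family (10.4 and 9.17 against 3.24; log2 ratio 1.34, SE 0.16, adjusted p = 0.0461). Mup genes are near-identical copies, and counts among them are uncertain. Lrrc34, a nucleolar protein known from pluripotent cells, was at 44.9 and 51.5 against 19.9 (log2 ratio 1.23, SE 0.13, adjusted p = 0.0356) and the gene model Gm13154 at 28.3 and 31.6 against 13.4 (log2 ratio 1.10, SE 0.13, adjusted p = 0.0462). Trh, the precursor of thyrotropin-releasing hormone, was at 247 and 267 against 126 (log2 ratio 1.02, SE 0.10, adjusted p = 0.0335), with 160.2 FPKM in BirA and 76.4 in Control. Another 10 genes were higher by the 2-fold rule without a limma call. They included Tmsb15l, a thymosin (8.55 and 5.06 against 1.09), Smarca1, a chromatin remodelling ATPase (8.70 and 7.65 against 3.04), Sh3bgrl (14.04 and 11.3 against 4.796), Chm, an escort protein of Rab GTPases (7.42 and 6.52 against 2.61), Vax2, a homeobox gene of the eye (8.73 and 4.06 against 1.48), Igdcc3 (5.30 and 5.59 against 2.11) and Tnik, a kinase of the Wnt pathway (5.58 and 5.34 against 2.15). The other 3 were Arhgef26, a guanine nucleotide exchange factor (3.72 and 4.72 against 0.798), Nfatc2, a transcription factor of calcium signalling (4.08 and 4.19 against 1.43), and Vax2os, antisense to Vax2 (4.99 and 3.13 against 1.05). The adjusted p of these 10 genes ranged from 0.0588 for Smarca1 to 0.0948 for Vax2. Without a stated strand, reads of Vax2 and Vax2os cannot be told apart.

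None of the core or naive pluripotency factors passed the 2-fold rule against ESC. Pou5f1, the central factor of the network, stood at 1240.1 FPKM in ESC and at 1187 and 1197 in the pair, Sox2 at 415 and 395 against 357 and Nanog at 284 and 267 against 226. Zfp42 was at 394 and 383 against 356, Tdgf1, a Nodal coreceptor, at 211 and 199 against 168 and Utf1, a chromatin factor, at 532 and 598 against 777. None of these 6 passed limma with adjustment, the lowest adjusted p being 0.0849 for Utf1 (log2 ratio -0.46). The 10 core factors had log2 ratios from -0.46 to 0.45. Of them 5 were above and 3 below ESC in both libraries, beside 41.8% and 39.8% of all genes. Their median was 0.10 and became -0.018 with BirA in place of ESC. Among the naive factors, Klf5 was at 248.6 and 239 against 223, Klf2 at 214 and 241 against 239, Esrrb at 206 and 206 against 205, Klf4 at 135 and 118 against 111 and Tfcp2l1 at 116 and 126 against 87.8. Of 15 naive factors 10 were above and 2 below ESC in both, with a median of 0.12 and log2 ratios from -1.19 to 0.69. This depended on the control, and the lack of a limma call at the 6 factors above holds against ESC only. With Control in place of ESC the naive median was 0.87 and the core median 0.21. Log2 ratios were then 0.62 for Utf1, 0.35 for Sox2 and -0.64 for Tdgf1, and from -0.074 to 0.067 for Pou5f1, Nanog and Zfp42. By limma the pair was then higher at Klf5 (log2 ratio 1.12, adjusted p = 0.0158), Tfcp2l1 (1.10, adjusted p = 0.0158), Esrrb (0.87, adjusted p = 0.0164), Klf4 (0.61, adjusted p = 0.0288) and Klf2 (0.60, adjusted p = 0.0266). With BirA in place of ESC the naive median was 0.23, and Klf5 (0.43, adjusted p = 0.0463) and Tfcp2l1 (0.72, adjusted p = 0.0287) passed. The 12 formative and primed factors tested had log2 ratios from -1.14 to 1.17, with Dnmt3l, described above, the 1 member past the rule. In all, 20 of the 35 lists had no member past the rule, among them the lists of BMP pathway genes, Wnt pathway targets, actin and SRF targets, cholesterol synthesis, p53 targets, immediate early genes and trophoblast genes.

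The ratios to ESC followed the base composition of the transcripts. Across 11391 genes Spearman's rho between the log2 ratio and transcript GC content was -0.56 for the library labelled Yap1_KO1 and -0.57 for the library labelled Yap1_KO2. Between controls it was -0.12 for BirA over ESC and -0.28 for Control over ESC, it was 0.17 for Yap1_KD over Control, and it was -0.024 within the pair. With other controls below it, the library labelled Yap1_KO1 had a rho of -0.40 over BirA and -0.15 over Control. Genes are not independent replicates, and the first 4 of these ratios share ESC, so these values describe the libraries. The 91 lower genes had a median GC content of 54.6% (89 with a value), the 18 higher genes 44.2% and all genes 51.1%. With the GC trend removed, 72 genes were lower and 15 higher by the 2-fold rule, and 65 and 8 of them were among the 91 and 18. Limma then called 31 lower and 10 higher genes, 29 and 5 of them among those named here. The calls lost were Atox1, Eno3, Fgf17, Mycn, Rcn3, Selm and Wnt7b on the lower side and Ddx3y, Gm13154, Lrrc34, Mup6 and Pros1 on the higher side. The YAP pathway genes Cyr61, Ctgf and Ajuba, the 4 epithelial genes and Nt5e, Trf and Tfrc were called in both fits.

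**Figure D4:**
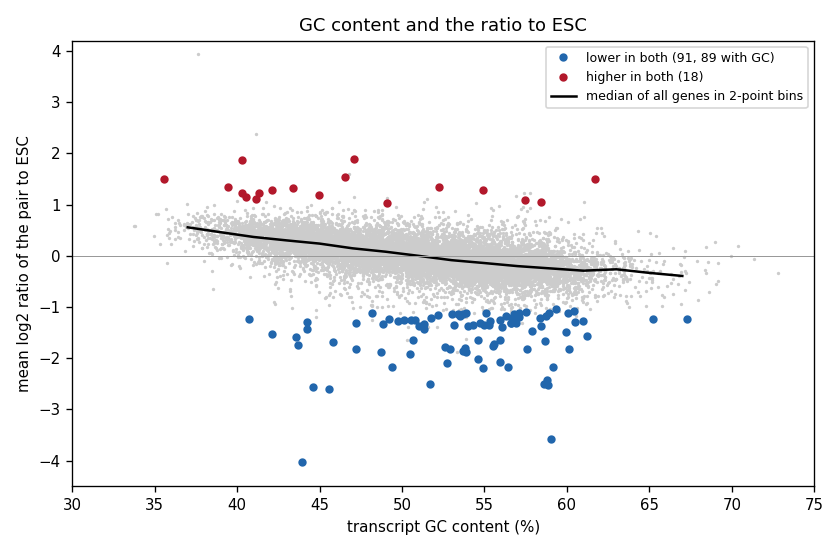
Mean log2 ratio of the pair to ESC for each gene against the GC content of its transcripts, with the genes at least 2-fold lower in blue and higher in red and the median of all genes in bins of 2 percentage points as a line. The line falls with rising GC content, and the 91 lower genes (median 54.6% GC) lie further right than the 18 higher genes (median 44.2%).

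The other Yap1 libraries, which the choice of these genes did not use and whose controls are other libraries than ESC, were then read at the same genes. In the knockdown, 58 of the 91 lower genes were below Control and 33 above, with a median log2 ratio of -0.15, where 48.9% of all genes were below and the median was 0.0066. At least 2-fold lower in the knockdown were 8 of the 91 (8.79%), beside 0.236% of all genes tested, and 3 (3.30%) were at least 2-fold higher, beside 0.183%. The 8 were D630045M09Rik (1.85 FPKM against 13.3), Peg10 (9.14 against 28.2), Dnmt3l (61.0 against 172), Cyr61 (0.999 against 3.38), Amotl2 (3.12 against 7.78), Wwc2 (5.99 against 13.01), 2200002D01Rik (1.39 against 4.202) and Arl14epl (4.64 against 10.8). The 3 in the other direction were Mt4, Tuba3a and 1700124L16Rik. Of the 18 higher genes 11 were above Control and 2, Vax2 and Vax2os, at least 2-fold. The 36 genes limma called lower were nearer to all genes in direction. Of them 19 (52.8%) were below Control and 17 above, with a median of -0.049, and 5 (13.9%) were at least 2-fold lower and 0 higher.

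In the overexpression library, 61 of the 91 lower genes were above BirA, with a median of 0.35 against 0.014 over all genes. At least 2-fold higher were 20 of them (22.0%), beside 1.03% of all genes, and at least 2-fold lower 5 (5.49%), beside 2.1%. Cyr61 was at 32.7 FPKM against 3.56 in BirA, Ctgf at 29.0 against 5.74, Amotl2 at 42.7 against 12.3 and Wnt7b at 9.68 against 2.79. Klhl13 and Ptch1 were also higher there, at 153 against 35.8 and 67.2 against 27.8. Of the 18 higher genes, 11 were below BirA and 4 (22.2%) at least 2-fold, beside 2.1% of all genes. Among the 4 were Trf (1.53 against 8.13), Ddx3y (1.09 against 4.58) and Vax2 (0.292 against 3.38). Another 1 of the 18 (5.56%) was at least 2-fold higher than in BirA, beside 1.03% of all genes. Below Control in the knockdown and above BirA in the overexpression library were 45 of the 91 (49.5%), where 30.8% of all genes were, and 4 genes were so by 2-fold in both: Cyr61, Amotl2, Peg10 and 2200002D01Rik. Tuba3a was 2-fold the opposite way in both. Between the 2 controls themselves, BirA over Control, the 91 genes had a median of 0.17 against 0.023 over all genes. In BirA 10 of them (10.99%) were at least 2-fold lower than in Control, beside 0.681% of all genes. Another 4 (4.40%) were at least 2-fold higher, beside 0.262%. Controls of the series thus differ at these genes too. Which control is set over the other is arbitrary, and Control over BirA would swap the 10 and the 4. The 20 higher genes of the overexpression library were more than either count. Its 5 lower genes and the 8 lower genes of the knockdown lay between the 4 and the 10. The 3 higher genes of the knockdown were fewer than either.

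**Figure D5:**
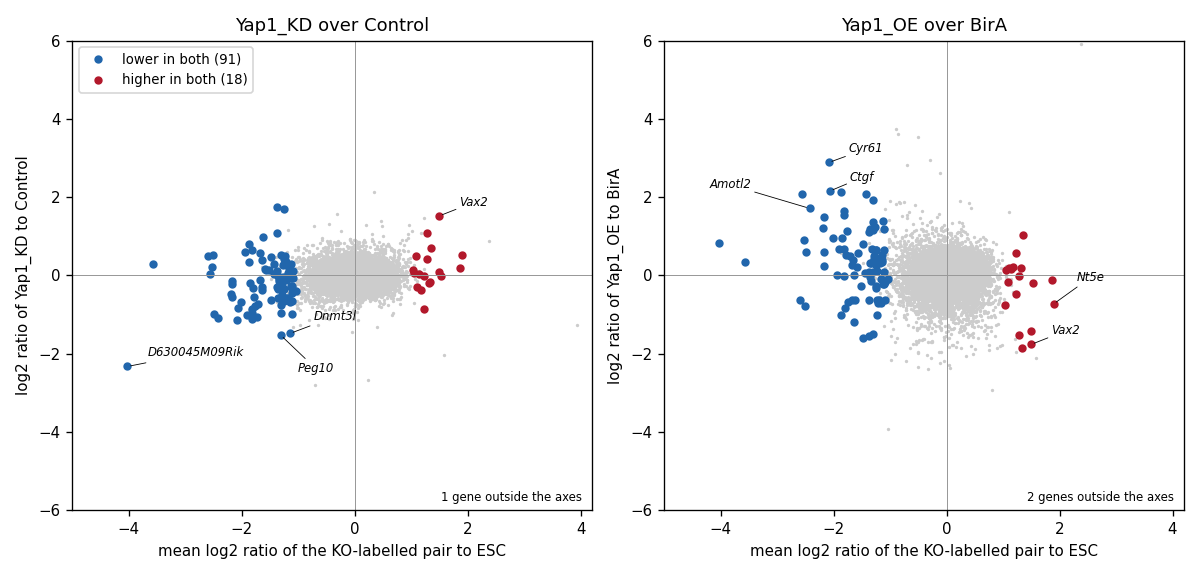
Log2 ratio of (FPKM + 1) of Yap1_KD to Control (left) and of Yap1_OE to BirA (right) against the mean log2 ratio of the pair to ESC, 1 point per gene tested. Of the 91 lower genes (blue) 58 lie below 0 on the left and 61 above 0 on the right, and of the 18 higher genes (red) 11 lie above 0 on the left and 11 below 0 on the right.

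In differentiated cells, 58 of the 91 genes were lower in dESC_Yap1_KD than in dESC_control, with a median of -0.18 against 0.0039 over all genes. Of the 91, 24 (26.4%) were at least 2-fold lower, beside 3% of all genes, and 7 (7.69%) at least 2-fold higher, beside 1.45%. Of the 36 genes limma called lower, 20 were lower there and 16 higher, 12 and 5 of them at least 2-fold. The 18 higher genes were split, 9 above and 9 below, with a median of 0.0020. At least 2-fold higher were 3 of them (16.7%) and at least 2-fold lower 2 (11.1%). The difference between the effect in the pair and that in the undifferentiated knockdown was tested for each gene by a limma interaction term. Of 12002 genes 1 (0.00833%) passed an adjusted p of 0.05 and 1923 (16%) had an unadjusted p under 0.05. Of the 109 genes of the 2-fold rule 0 passed with adjustment by limma and 85 had an unadjusted p under 0.05, the lowest adjusted p being 0.202 for Snhg9. These genes were chosen for a large effect in the pair, which is an arm of the difference tested, so an excess of low p-values is built in and nothing is read from it. With 1 library in each arm of the knockdown, all of the spread in that test comes from the pair.

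The 2 libraries of the pair differed from each other by at least 2-fold at 32 genes (0.28%) higher and 39 genes (0.341%) lower in the library labelled Yap1_KO1. Among genes at 5 FPKM or more, the largest gaps toward the library labelled Yap1_KO1 were at AF357399, Kirrel, Cdkn2a, Slc25a16 and Fabp3, and toward the library labelled Yap1_KO2 at Gm12238, Prkd3, Gm12669, S100a6 and Defb42. Cdkn2a, the locus of the cell cycle inhibitors p16 and p19, was at 15.5 and 4.22 FPKM, with 8.87 in ESC between them. S100a6, a calcium-binding protein, was at 8.55 and 41.6 against 73.0, and Fabp3, a fatty acid binding protein, at 20.002 and 6.70 against 16.6. Yap1 itself differed between them, at 57.3 and 27.6 FPKM. Against ESC alone, the library labelled Yap1_KO1 had 52 genes at least 2-fold higher and 165 lower, and the library labelled Yap1_KO2 had 54 and 164.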

How the data were processed

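Polyadenylated RNA of 9 libraries was given in 1 deposited table. Its values were taken as FPKM made by the authors with TopHat2 and Cuffdiff on mm9, per the submitters' processing notes; the table does not name the unit, and the sources used here give no version, annotation or strandedness. Without strand, antisense partners cannot be told apart. Cuffdiff estimates values by likelihood, and a 0 can be a failed estimate. Of 23277 rows, 4746 blank rows, 27 with date-like symbols and 168 small RNA rows were left out. Small RNA rows held 15.9% to 23.6% of the summed FPKM per library.

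Ratios are of log2(FPKM + 1), which understates the change of low genes, over genes at 1 FPKM or more in any of the 3 libraries. Limma (version 3.58.1, R version 4.3.3), with its prior variance following the mean level and p-values adjusted by Benjamini-Hochberg, was fitted to ESC, Yap1_KO1 and Yap1_KO2 (1 residual degree of freedom; the lone ESC library is assumed to vary like the pair), and again with Control and Yap1_KD for the interaction. The fit was tested on simulated data. All 3 simulated libraries were drawn with a spread sized from the pair, so this could not show whether ESC varies like the pair. Depth came from the steps of FPKM under 0.3 in transcripts of at least 3000 nt and includes Cuffdiff's scaling, so it is approximate. GC content, transcript lengths (GENCODE M21) and promoters (RefSeq) are of GRCm38, another build than mm9. The first promoter entry per gene was used.

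Named genes are Yap1, Wwtr1 and Tead1 to Tead4, the 15 highest and 20 lowest by the smaller ratio of the pair at 5 FPKM or more, the limma calls, list members called or 2-fold in both (in lists with none, up to 6 of the highest mean FPKM), and the 5 genes in each direction with the largest gap within the pair. Other genes, such as Anxa2, Fzd2, Jag2, Ina, Nefl, Pgam2, Htra1, Efs, Hormad2, Rhox13, Usp26, Eif2s3y, Uty and those of the count sentences, were named after their values were seen. The members and lists were chosen with earlier results of these data known. The alternatives covered the pseudocount, filters, scaling, GC content, the control library and each library of the pair.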

Additional observations from a re-analysis of the deposited data

Results flagged for a closer look

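The effect in the pair and the effect in the knockdown differed by the limma interaction term for 1 gene, Serbp1, which encodes an abundant mRNA-binding protein. The difference was -7.65 on the log2(FPKM + 1) scale (Benjamini-Hochberg adjusted p = 0.00122 by limma). The pair's log2 ratio to ESC was 0.14, and nearly all of the difference came from the knockdown arm, where the gene is listed at 0 in Control and has a level in Yap1_KD, a log2 ratio of 7.79. A 0 of so abundant a gene cannot be read as absence.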

How the results depend on the processing

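Limma's counts of higher and lower genes, 10 and 36 as reported, were 5 and 15 with a pseudocount of 0.1, 34 and 85 with 5, 107 and 114 with a filter at 5 FPKM, 2 and 18 with small RNA rows kept in, 160 and 224 with median-ratio scaling, 680 and 656 with BirA and 1621 and 1197 with Control in place of ESC, and 1 and 3 with both added. With quantile normalization 26 were higher and 44 lower. Without the trend limma called 0 higher (1410 at an unadjusted p under 0.05) and 2 lower, and with no filter 0 and 0 (1298 and 1624 unadjusted). Of the 46 calls, all 46 were kept with a pseudocount of 5, with median-ratio and with quantile scaling, 39 with the filter at 5 FPKM, 34 with the GC trend removed, 41 with BirA and 36 with Control in place of ESC, 20 with a pseudocount of 0.1, 4 with 3 controls, 3 with small RNA rows and 2 without the trend.

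The 2-fold counts, 18 higher and 91 lower, were 64 and 197 with a pseudocount of 0.1, 4 and 28 with 5, 81 and 228 with BirA and 152 and 340 with Control in place of ESC; 35 were higher with 3 controls. Leaving out 1 library of the pair gave 52 to 54 higher and 164 to 165 lower, since the rule then asks for 1 library. Lower genes below 0 in the knockdown (58 of 91) numbered 124 of 197 and 16 of 28 with pseudocounts of 0.1 and 5, and higher genes above 0 (11 of 18) 42 of 64 and 2 of 4. With the GC trend removed these lower and higher genes numbered 46 of 72 and 14 of 15. With quantile normalization they were 57 of 91 and 14 of 20, and with median-ratio scaling 58 of 92 and 9 of 16. The interaction gave 33 genes with small RNA rows, 2 with quantile normalization, 0 with no filter (3144 unadjusted) and 0 without genes listed at 0 in 1 library and at 20 FPKM or more in another (1932 unadjusted, by limma). With Control in place of ESC the log2 ratio of Yap1 was 0.088 (adjusted p = 0.888 by limma), and the sign reversed for Mycn (0.018), Nefh (0.13), Tfrc (-0.0070), Klf2 (0.60), Utf1 (0.62) and Tdgf1 (-0.64). It also changed, with no call in either fit, for genes named for their gap within the pair: AF357399 (-4.24), Gm12238 (-2.54), Gm12669 (-1.50) and Defb42 (-1.20), and by small values for Pou5f1, Zfp42, Wwtr1 and Lama1 (0.067, -0.074, -0.054 and 0.057). The cause was not tested. No paired analysis was possible because ESC and the pair share fewer than 2 replicate numbers, and limma without either library of the pair has no residual degrees of freedom.

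The pair cannot be split into effects of editing, clone and passage, and 1 control library leaves differences between controls in every ratio. At 9.30 M fragments in the library labelled Yap1_KO1, levels under 1 FPKM of short transcripts rest on few fragments.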
